A study of Drosophila melanogaster with 25 samples.

Results

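Dopaminergic neurons (DANs) of the adult fly brain make dopamine from tyrosine with tyrosine hydroxylase, encoded by *ple*, and dopa decarboxylase, encoded by *Ddc*. They load it into vesicles with the transporter encoded by *Vmat* and take it back up with the transporter encoded by *DAT*. *Fer2* (*48-related-2*) encodes a basic helix-loop-helix transcription factor of the PAM group of DANs, which innervates the mushroom body and is known for conveying reward in learning, and PAM neurons need *Fer2* for their development and survival. *TH-GAL4*, the driver used here, is known to label few of the PAM neurons. *Fer2* lies on chromosome 3R, 16149369 to 16151312, on the minus strand of the dm6 assembly, as a gene of the BDGP6.54 annotation (FBgn0038402).

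The 10X Chromium cells came from adult brains of both sexes in which *TH-GAL4* and *Clk856-GAL4* were combined to label DANs and clock neurons with EGFP, and cells positive for EGFP and Hoechst were sorted at ZT14 and ZT02 (hours after lights on in 12:12 light and dark cycles), in 1 library at each time point. A second set of DANs, from flies with *TH-GAL4* and without *Clk856-GAL4*, was sorted into plates and profiled by CEL-seq2 in 23 libraries over 6 time points. Both methods tag each captured mRNA with a unique molecular identifier (UMI), and the values below are UMIs, or UMIs per 10000 captured in that cell or pool of cells (TP10K). Each library pooled cells of many brains, and *TH-GAL4* drives in cells other than the neurons described here.

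Fer2 DANs were selected on 4 genes: at least 1 UMI of *Fer2*, at least 5 UMIs of *DAT*, at most 1 UMI of *Nos* (nitric oxide synthase) and less than 50 TP10K of the neuropeptide gene *NPF*. Of 5184 10X cells, 301 met the rule, 132 at ZT14 and 169 at ZT02. They were set against 1809 Fer2-negative DANs (736 at ZT14 and 1073 at ZT02), which had at least 5 UMIs of *DAT* and no UMI of *Fer2* and on which no limit on *Nos* or *NPF* was placed. The 2 libraries shared 0 cell barcodes. In CEL-seq2, 34 of 1516 cells met the same rule and 711 were Fer2-negative DANs, and 0 to 4 Fer2 DANs came from any 1 library. The 10X sums held 994546 UMIs at ZT14 and 952790 at ZT02 for the Fer2 DANs.

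The rule sat on low counts. Among the Fer2 DANs, 127 had 1 UMI of *Fer2*, 64 had 2 and 110 had 3 or more, with 12 as the highest, and the sums held 3.69 TP10K of *Fer2* at ZT14 and 3.82 at ZT02. A further 120 cells with *Fer2* and enough *DAT* were left out, 108 by the limit on *Nos*, 14 by that on *NPF* and 2 of these by both. Of those left out by *Nos*, 41 had 2 UMIs, just past the limit, while 57 Fer2 DANs had 1. At the limit on *DAT*, 9 Fer2 DANs had 5 UMIs and 9 cells that were otherwise alike had 4. The limit on *NPF* fell in a wide gap, with 8.70 TP10K in the highest Fer2 DAN and 349 TP10K in the lowest cell left out by it. These values chose the cells and were not tested.

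Fer2 DANs were shallower than Fer2-negative DANs, at 4098 UMIs and 1624 genes in the median cell against 8413 UMIs and 2443 genes. The limits of the rule are UMI counts that do not scale with depth, and a Fer2-negative DAN is a cell in which no *Fer2* UMI was captured. After thinning to 2000 UMIs a *Fer2* UMI was left in 62.2% of the 262 Fer2 DANs deep enough, and after thinning to 1000 in 46.5% of all 301.

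Most of the selected cells held transcripts of dopaminergic genes besides *DAT*, whereas *RunxA*, *Rx* and *dac* were rare in them. A UMI of *ple* was found in 299 of 301 Fer2 DANs (99.3%, 95% exact Clopper-Pearson interval 97.6 to 99.9) and in 98.9% of the Fer2-negative DANs. *Vmat* was found in 289 Fer2 DANs (96.0%, 93.1 to 97.9) and in 95.3% of the Fer2-negative DANs. In cells without a *DAT* UMI, at a median of 7043 UMIs, the same shares were 43.3% for *ple* and 14.4% for *Vmat*. The exact intervals and the Poisson intervals below cover counting error only. The cells were chosen on *DAT*, so these shares describe them and are no test of the label. A *ple* UMI was also found in all 13 cells of group 9 and all 9 of group 11, described below. The level of *ple* there was low, at 7.03 and 9.66 TP10K.

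*RunxA* (a Runt family transcription factor), *Rx* (the retinal homeobox gene), *dac* (*dachshund*, a nuclear factor of eye and mushroom body development) and *CG8641* had been named with *Fer2* as markers of these cells. *RunxA* was found in 3 of 301 Fer2 DANs (0.997%, 0.206 to 2.88), *Rx* in 2 (0.664%, 0.0806 to 2.38) and *dac* in 4 (1.33%, 0.363 to 3.37). The Fer2-negative DANs held them in 13.5%, 11.8% and 31.8% of cells, and cells without *DAT* in 3.23%, 0.856% and 6.97%, so that the shares in the Fer2 DANs lay at or below those of cells outside the class. *CG8641* was found in 110 Fer2 DANs (36.5%, 31.1 to 42.3), in 45.5% of the Fer2-negative DANs and in 13.3% of cells without *DAT*.

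Equal depth did not remove the difference for *RunxA*, *Rx* and *dac*. After thinning to 2000 UMIs, which left out 39 Fer2 DANs and 138 Fer2-negative DANs as too shallow, *RunxA* was found in 0 of 262 Fer2 DANs, which allows a share of cells with a UMI at this depth of up to 1.15% by a floor of 3 counts (exact upper limit 1.4%), against 8.26% of the Fer2-negative DANs. *Rx* was found in 0 of 262 against 4.67%, and *dac* in 2 of 262 (0.763%) against 19.7%. *CG8641* was found in 24.4% of the Fer2 DANs against 25.7% of the Fer2-negative DANs, and at 1000 UMIs in 20.9% against 17.7%, with intervals that overlap at both depths.

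**Figure D1:**
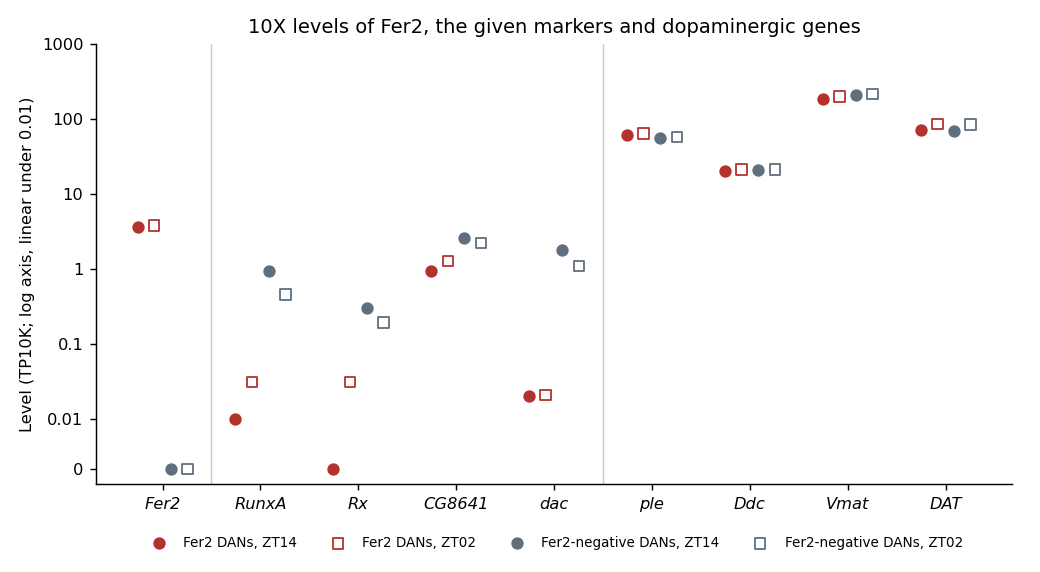
Levels in TP10K (y axis, logarithmic above 0.01 and linear below) of *Fer2*, the 4 other given markers and 4 dopaminergic genes (x axis) in 10X sums of Fer2 DANs (red) and Fer2-negative DANs (grey) at ZT14 (filled circles) and ZT02 (open squares). *RunxA*, *Rx* and *dac* lie at 0.0315 TP10K or less in the Fer2 DANs of both libraries, and the dopaminergic genes lie close together in both classes.

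Levels in the sums of all cells were lower in Fer2 DANs for each of these genes. *dac* stood at 0.0201 TP10K at ZT14 and 0.0210 at ZT02 in Fer2 DANs, and at 1.80 and 1.10 TP10K in Fer2-negative DANs. *RunxA* stood at 0.0101 and 0.0315 TP10K in Fer2 DANs against 0.939 and 0.461 TP10K. *CG8641* stood at 0.955 and 1.28 TP10K against 2.56 and 2.23 TP10K. The classes did not overlap for any of the 3 genes. This was common, as 643 of all 717 genes called in 10X had classes that did not overlap in both libraries. In the fit across all genes described next, *dac* (log2 fold change -6.18 ± 0.30 SE), *RunxA* (-5.12 ± 0.37), *Rx* (-4.04 ± 0.52) and *CG8641* (-1.15 ± 0.13) were all called lower in Fer2 DANs, with adjusted p of 5.83e-28, 3.04e-19, 2.02e-09 and 1.76e-11. *dac* (-4.41 ± 0.70, adjusted p = 1.84e-05) and *CG8641* (-1.94 ± 0.45, adjusted p = 0.0056) were called lower in CEL-seq2 too, where *RunxA* was not called (adjusted p = 0.156) and *Rx* was too low to be tested. *CG8641* was uneven among the Fer2 DANs. It stood at 3.38 TP10K in a first set of groups described below, with 184 cells, and at 0.0440 TP10K in a second. The Fer2-negative DANs of 10X held 2.39 TP10K. The cells are called Fer2 DANs, by their rule, and not by *RunxA*, *Rx*, *dac* or *CG8641*.

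Each 10X cell was also matched to the mean profiles of the 43 clusters of the study by correlation. Of 23 clusters with 20 or more DANs, 5 held *Fer2* in at least 40% of them: 45 of 54 cells in cluster 36 (83.3%), 22 of 27 in cluster 42 (81.5%), 35 of 44 in cluster 22 (79.5%), 12 of 20 in cluster 41 (60.0%) and 156 of 340 in cluster 9 (45.9%). In the other 18 clusters *Fer2* was found in 38 of 1481 DANs (2.57%), and in 6 of these clusters in 0 of 525 cells, which allows a share of up to 0.571% for cells with a captured UMI and sets no limit on cells that express the gene. By cluster, 104 Fer2 DANs matched cluster 9, 44 cluster 36, 21 each clusters 22 and 42, 12 cluster 41 and 69 none. In CEL-seq2, 8 of the 34 Fer2 DANs matched cluster 22, 7 cluster 41, 6 cluster 42, 5 cluster 36, 2 cluster 9 and 4 none.

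The match to cluster 9 was loose. Fer2 DANs matched there had a median correlation of 0.610 and none above 0.661, against a median of 0.811 for the Fer2-negative DANs of the same cluster and 0.919 for Fer2 DANs matched to clusters 22, 36, 41 and 42. With a correlation minimum of 0.7, 0% of Fer2 DANs were left in cluster 9 and 65.1% had no cluster. The 104 Fer2 DANs of cluster 9 held no UMI of *RunxA* and 0.0311 TP10K of *dac*, while its 184 Fer2-negative DANs held 3.20 TP10K of *RunxA*, 1.68 of *Rx* and 3.59 of *dac*. *CG8641* lay in both, at 4.67 TP10K in the Fer2 DANs of the cluster, with a UMI in 71 cells, against 15.7 TP10K in its Fer2-negative DANs.

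*Fer2* was not confined to DANs. Among cells without a *DAT* UMI it was found in 54 of 67 cells matched to clock cluster 1 (80.6%) and 22 of 28 matched to clock cluster 10 (78.6%), and in 26 of 779 cells that matched no cluster (3.34%).

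Clustering of the 301 Fer2 DANs among themselves gave 11 groups. These groups were made from the same expression values, so the levels that follow describe them and carry no test. A first set of 5 groups (1, 2, 4, 7 and 8) held 184 cells of low depth (median 2883 UMIs), 89 from ZT14 and 95 from ZT02. A second set of 4 groups (3, 5, 6 and 10) held 95 cells of high depth (median 12217 UMIs), 38 from ZT14 and 57 from ZT02. Group 11 had 9 cells (5 from ZT14 and 4 from ZT02) and group 9 had 13, all from ZT02. The sets were named after their levels had been seen.

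The 2 large sets had different transcription factors. *pros* (*prospero*, a homeodomain factor of neural differentiation) stood at 147 TP10K in the first set, with a UMI in every cell, and at 14.4 TP10K in the second, with a UMI in 48 of 95 cells. *Ets65A* (an ETS family factor) was found in 1 of 184 cells of the first set, at 0.116 TP10K, and in 90 of 95 cells of the second, at 15.7 TP10K. *toy* (*twin of eyeless*, one of the fly Pax6 genes) was found in 2 cells of the first set and in 86 of the second, at 0.116 and 6.66 TP10K.

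*TfAP-2* and the homeobox gene *Dbx* followed *toy*. No cell of the first set held a UMI of either, while the second set had *TfAP-2* in 80 cells (2.96 TP10K) and *Dbx* in 57 (1.45 TP10K). *Bx*, which encodes a LIM-only cofactor, went the other way, at 20.6 TP10K in the first set and 1.02 in the second. *CG8641* was found in 100 cells of the first set (3.38 TP10K) and in 5 of the second (0.0440 TP10K). All of these differences were present at both time points. *pros*, for instance, stood at 176 TP10K at ZT14 and 104 at ZT02 in the first set, and at 16.6 and 12.3 TP10K in the second.

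Other genes ran through both sets. *hth* (*homothorax*, a homeodomain cofactor of Hox proteins) was found in 91.3% and 98.9% of their cells, at 27.5 and 30.9 TP10K. *Lim1*, a LIM homeodomain gene, was found in 84.8% and 90.5%, at 8.95 and 6.14 TP10K. The dopamine autoreceptor gene *Dop2R* was found in every cell of both, at 173 and 168 TP10K. *ple* stood at 72.9 and 67.7 TP10K, whereas *Vmat* stood at 116 and 263 TP10K, *DAT* at 58.3 and 101 TP10K and *Ddc* at 34.2 and 15.1 TP10K. *Fer2* itself, on which the cells were chosen, stood at 6.42 and 2.58 TP10K.

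**Figure D2:**
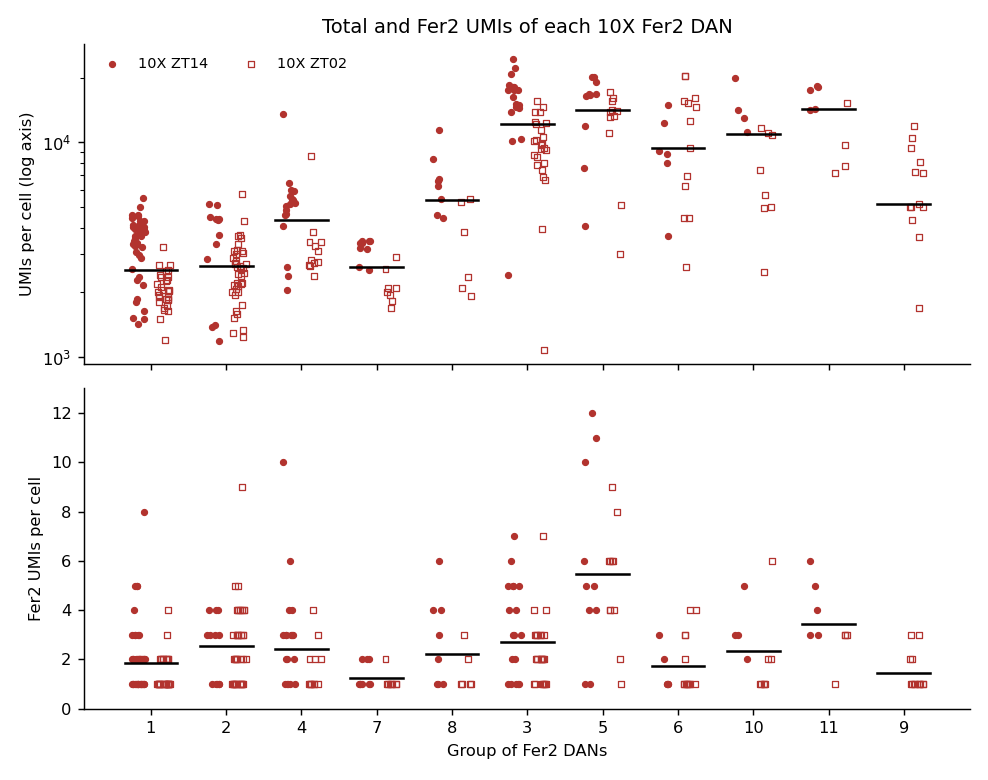
Total UMIs per cell (upper panel, log axis) and *Fer2* UMIs per cell (lower panel) of the 301 Fer2 DANs by group (x axis), with ZT14 as filled circles, ZT02 as open squares, and black lines at the median of total UMIs and the mean of *Fer2* UMIs. Groups 3, 5, 6, 10 and 11 have medians of 9434 UMIs or more, groups 1, 2, 4, 7 and 8 of 5345 or fewer, and group 9 has no ZT14 cell.

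Within the first set, group 1 (72 cells) was led by *CG15537* at 25.2 TP10K and *Dscam3* (a Dscam family cell adhesion gene) at 10.7 TP10K, against 2.48 and 1.3 TP10K in the other Fer2 DANs. Group 2 (51 cells, of which 39 came from ZT02) was led by the serotonin receptor gene *5-HT2A* at 5.35 TP10K, found in 37 cells, against 0.343 TP10K in the others. Group 4 (30 cells) had the zinc finger gene *br* (*broad*) in every cell, at 42.4 against 0.121 TP10K, and the highest level of the octopamine receptor gene *Octbeta3R*, 7.74 TP10K. Group 7 (17 cells) had *bab2* (*bric à brac 2*) at 2.40 against 0.158 TP10K, and group 8 (14 cells) had the highest *pros*, 364 TP10K.

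Within the second set, each group matched 1 cluster of the study for most of its cells. Group 3 (43 cells, all matched to cluster 36) held *DIP-beta*, an immunoglobulin domain gene of the DIP family, in 37 cells at 2.38 TP10K against 0.0212 TP10K in the others, so that 97.7% of the *DIP-beta* UMIs of Fer2 DANs lay there. It also led in *beat-IIa* (9.04 TP10K) and *Dh31-R* (2.81 TP10K), the receptor gene of diuretic hormone 31. Group 5 (21 cells, all matched to cluster 42) had *lov* (*jim lovell*) in every cell, the neuropeptide gene *Nplp1* at 6.97 against 0.319 TP10K, and no *Dbx*. Group 6 (19 cells, 12 of them matched to cluster 41) had *Apoltp* at 2.39 TP10K, and the neuropeptide genes *Proc* at 2.54 and *Dh44* at 3.56 TP10K. It was mixed, with its other cells each matched to a different cluster. The cell matched to clock cluster 10 held 5 *DAT* UMIs among 14506, and another cell held 8 among 12217. Group 10 (12 cells, all matched to cluster 22) held *fru* (*fruitless*, a BTB zinc finger factor of the sex determination pathway) at 121 TP10K, against 4.08 TP10K in the others.

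The 2 small groups stood apart from a dopaminergic profile. Group 11 (9 cells, all matched to cluster 22) held *ple* at 9.66, *DAT* at 11.3 and *Vmat* at 0.0819 TP10K, with a *Vmat* UMI in 1 of 9 cells. It shared *toy*, *Ets65A*, *hth* and *Lim1* with the second set, and held the neuropeptide gene *CCHa2* at 255 TP10K in all 9 cells, *Dop1R2* (a dopamine receptor gene) at 7.37 TP10K and *Trh* (tryptophan hydroxylase, of serotonin synthesis) at 3.28 TP10K in 8 cells.

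Group 9 (13 cells) held *ple* at 7.03, *DAT* at 13.6 and *Vmat* at 25.7 TP10K, with the neuropeptide genes *AstC* at 191 and *AstA* at 36 TP10K. The 9 clock neuron markers summed to 209 TP10K in group 9 (1755 UMIs), against 195 TP10K in cells without *DAT*. The peptide gene *Pdf*, with 1730 UMIs in all Fer2 DANs of ZT02, made up most of the sum in group 9. The clock genes *Clk* and *cry* had 4 and 37 UMIs in all Fer2 DANs of ZT02, and *vri* had 0 in group 9. At ZT02, the time of all cells of group 9, they summed to 3.43 TP10K in Fer2-negative DANs. They summed to 42.7 TP10K in all Fer2 DANs of ZT02, which include group 9. At ZT14 the sums were 1.64 TP10K in Fer2 DANs and 1.07 in Fer2-negative DANs. The 5 glial markers summed to 7.03 TP10K in group 9, with *repo* at 0, against 2.12 in cells without *DAT*. The genes below whose UMIs lay mostly in these groups are given with the share held there.

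**Figure D3:**
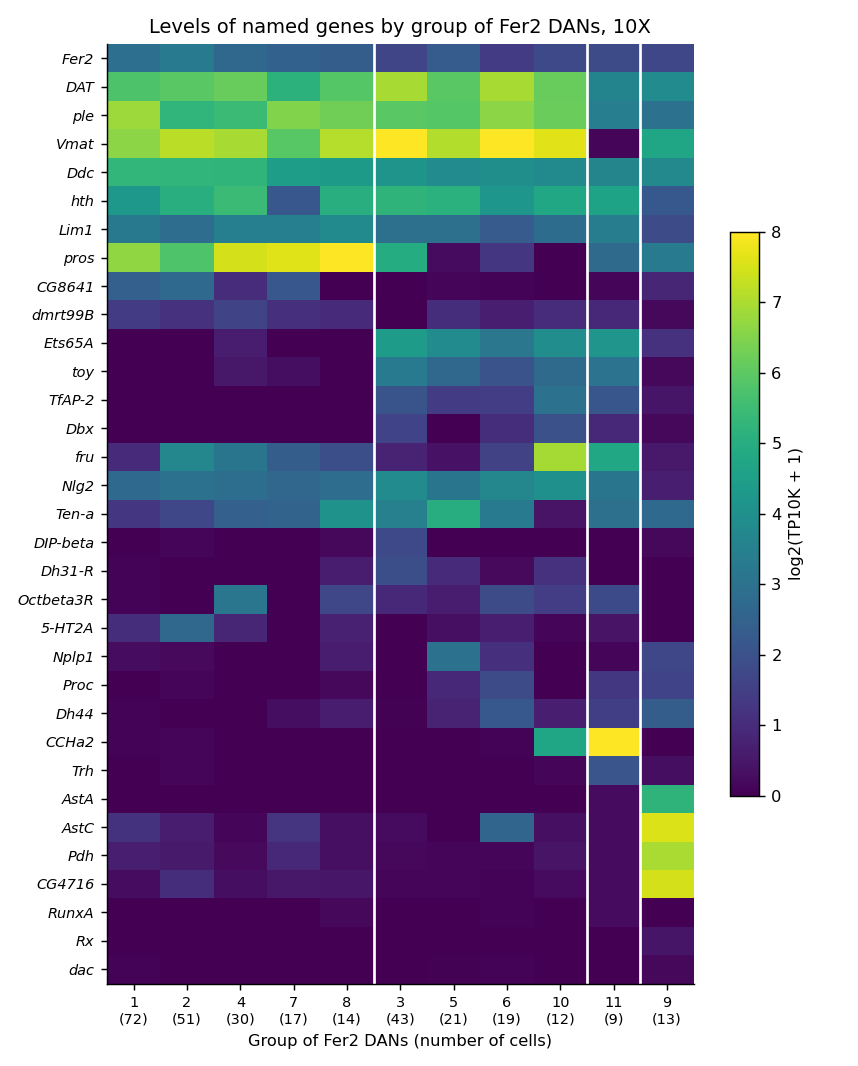
Levels, as log2(TP10K + 1), of 33 genes (rows) in the 11 groups of Fer2 DANs (columns, with the number of cells in brackets), in the order first set, second set, group 11 and group 9, set off by white lines. *Ets65A*, *toy* and *TfAP-2* are bright in groups 3, 5, 6, 10 and 11 and dark in the first set, *pros* is brightest in group 8, and *RunxA*, *Rx* and *dac* are dark throughout.

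Fer2 DANs were compared with Fer2-negative DANs gene by gene, to ask which genes set the *Fer2* cells apart from the other sorted DANs. Sums of UMIs per class were fitted in edgeR with the 10X library as a block (4 sums), or in CEL-seq2 with the time point as a block at ZT02, ZT06 and ZT14, where 7, 9 and 9 Fer2 DANs were available (6 sums). Genes of the rule were left out, and a call needed an adjusted p under 0.05 together with a ratio of at least 5 to 4 between the classes, either way. The 10X p-values rest on how far the class difference varied between the 2 libraries, with the dispersion estimated across genes. These libraries are also the 2 time points, so the p-values do not measure the spread between replicate libraries. Each cell counted in a sum by its UMIs, so the deep groups weighed more than their share of cells. Group 3 gave 27.2% of the 10X UMIs of Fer2 DANs from 14.3% of the cells, and group 1 gave 10.6% from 23.9%. In 10X, 290 of 6935 genes were called higher in Fer2 DANs (4.18%) and 427 lower (6.16%). In CEL-seq2, 36 of 4661 genes were called higher (0.772%) and 68 lower (1.46%).

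Of the 717 calls in 10X, 505 were tested in CEL-seq2 and 374 of these (74.1%) had the same sign there. Both methods called 75 genes in the same direction, 24 higher and 51 lower, which made up 10.5% of the 10X calls and 72.1% of the CEL-seq2 calls. Another 3 were called in opposite directions. These counts were lower in 2 of the fits on fewer cells, and the cause was not tested. Among cells of 5000 UMIs or more, 118 genes were called higher and 198 lower in 10X, and without ZT14, which leaves 4 of 6 sums, 5 were called higher and 13 lower in CEL-seq2. Without groups 9 and 11, 72 of the 75 shared calls remained in 10X. The methods held unlike mixes of cells, since 2 of 34 Fer2 DANs matched cluster 9 in CEL-seq2 and 104 of 301 in 10X. Whether the shared calls hold in the first set of groups alone was not tested.

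**Figure D4:**
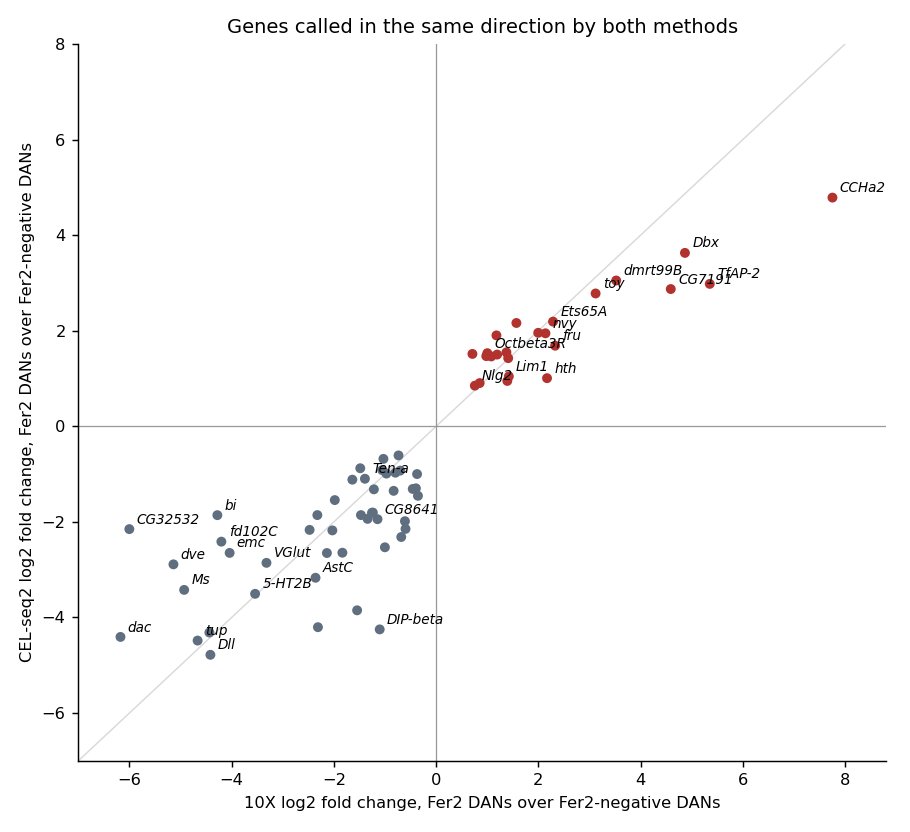
Log2 fold changes of Fer2 DANs over Fer2-negative DANs in 10X (x axis) and CEL-seq2 (y axis) for 70 of the 75 genes called in the same direction by both methods, red for higher and grey for lower, with the line of equal values. The 5 genes with no UMI in the Fer2 DANs of a method are not drawn, and *CCHa2* lies farthest to the upper right.

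Most of the listed transcription factors were called in 10X. This list and those below were chosen with earlier results of these data known. Their shares therefore describe the members and are no test of the lists. Of 56 listed factors tested in 10X, 17 were called higher (30.4%, against 4.18% of all genes) and 32 lower (57.1%, against 6.16%). Their median log2 fold change was -1.52, against -0.0142 over all genes tested. In CEL-seq2, 8 of 48 were called higher (16.7%, against 0.772% of all genes) and 12 lower (25.0%, against 1.46%). The median there was -0.53, against -0.0335. All 20 of the CEL-seq2 calls were called in the same direction in 10X.

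*toy* was among the factors called higher in both methods, with 4.20 TP10K at ZT14 and 4.57 at ZT02 in 10X Fer2 DANs against 0.437 and 0.544 TP10K in Fer2-negative DANs (log2 fold change 3.12 ± 0.12 SE). In CEL-seq2 it stood at 6.43, 5.43 and 4.49 TP10K in Fer2 DANs at ZT02, ZT06 and ZT14, against 1.12, 0.769 and 0.517 TP10K (2.78 ± 0.24, adjusted p = 1.36e-12). *Ets65A* stood at 10.2 TP10K at ZT14 and 10.5 at ZT02 against 1.86 and 2.26 TP10K (2.29 ± 0.13), and was likewise higher in CEL-seq2 (2.19 ± 0.22, adjusted p = 3.1e-10). In both genes the lowest Fer2 sum lay above the highest Fer2-negative sum of the same method. Classes that did not overlap in both libraries were common in 10X, at 643 of all 717 genes called. In the first set of groups, with 184 of the 301 10X cells, *toy* was found in 2 cells and *Ets65A* in 1.

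*Dbx* (4.87 ± 0.23 in 10X, 3.63 ± 0.66 in CEL-seq2) and *dmrt99B*, a Doublesex-related factor (3.52 ± 0.21 and 3.05 ± 0.62), rose as well. *Dbx* stood at 0.865 TP10K at ZT14 and 0.955 at ZT02 in Fer2 DANs against 0.0291 and 0.0308 TP10K. *TfAP-2*, a factor outside the list, stood at 2.20 TP10K at ZT14 and 1.70 at ZT02 in Fer2 DANs against 0.0490 and 0.0426 TP10K (5.35 ± 0.18 in 10X, 2.98 ± 0.42 in CEL-seq2). *fru* rose in both methods (2.33 ± 0.12 and 1.69 ± 0.20), but 65.5% of its 10X UMIs in Fer2 DANs lay in the 12 cells of group 10. *danr* (*distal antenna-related*) was the last of the 8. In CEL-seq2, *toy* and *Ets65A* were found in 19 of 25 Fer2 DANs each and *TfAP-2* in 14, against 98, 107 and 91 of 301 in 10X. No 10X cell of the first set of groups held a UMI of *Dbx* or *TfAP-2*.

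Among the shared factors, *hth* and *Lim1* were found in 84.8% or more of the cells of each large set of groups. *fru* was found in 51.1% of the first set and 49.5% of the second, at 5.51 and 13.2 TP10K. *dmrt99B* was found in 34.8% and 26.3%, at 1.51 and 0.475 TP10K. *hth* stood at 29.3 TP10K at ZT14 and 27.2 at ZT02 in Fer2 DANs against 6.06 and 6.10 TP10K in Fer2-negative DANs (2.17 ± 0.10), and at 19.4, 16.9 and 21.6 TP10K against 8.31, 10.0 and 10.0 TP10K in CEL-seq2 at ZT02, ZT06 and ZT14 (1.01 ± 0.16, adjusted p = 3.42e-05). *Lim1* stood at 9.07 TP10K at ZT14 and 4.97 at ZT02 against 3.18 and 1.86 TP10K (1.42 ± 0.12), and rose in CEL-seq2 (1.04 ± 0.24, adjusted p = 0.0045). *Lim1* was found in 255 of 301 Fer2 DANs. *pros*, named after its values were seen, was called higher in 10X (1.77 ± 0.09, 73.3 TP10K at ZT14 and 35.5 at ZT02 against 17.8 and 11.8 TP10K) but not in CEL-seq2 (log2 fold change 0.54, adjusted p = 0.241).

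Several of the factors that fell had few UMIs left in Fer2 DANs. *tup* (*tailup*, the fly Islet gene) stood at 0.0101 TP10K at ZT14 and 0.105 at ZT02 in Fer2 DANs against 1.32 and 1.47 TP10K in Fer2-negative DANs (-4.67 ± 0.26), with 9 of its 11 UMIs in group 6. It was found in 5 of 301 Fer2 DANs against 690 of 1809 Fer2-negative DANs, and fell in CEL-seq2 as well (-4.48 ± 0.69, adjusted p = 1.02e-05). *emc* (*extra macrochaetae*, an inhibitor of basic helix-loop-helix factors) stood at 0.342 and 0.315 TP10K against 5.78 and 4.71 TP10K (-4.04 ± 0.16 in 10X, -2.65 ± 0.29 in CEL-seq2), and was found in 23 of 301 against 1512 of 1809 cells. *dve* (*defective proventriculus*), a homeobox gene, stood at 0.121 and 0.0315 TP10K against 2.56 and 2.72 TP10K (-5.14 ± 0.21 and -2.89 ± 0.66).

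The other factors that both methods called lower were *bi*, *fd102C*, *Dll*, *ey*, *mirr*, *rn*, *mamo* and *CG9650*, besides *dac*. They include the second Pax6 gene, *ey* (*eyeless*), which had 0.0359 TP10K in Fer2 DANs against 0.519 TP10K in 10X, the reverse of *toy*. The homeobox genes *mirr* (*mirror*) and *Optix* were at 0 in Fer2 DANs of ZT14, and *Optix* was called lower in 10X alone (-4.12 ± 0.27). *CG32532*, one of the largest falls in 10X (-6.0 ± 0.28), fell in CEL-seq2 too (-2.15 ± 0.50).

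Of 7 genes of dopamine synthesis and handling tested in 10X, 0 were called higher (0%, against 4.18% of all genes) and 1 lower (14.3%, against 6.16%). *DAT*, a gene of the rule, stood at 71.3 TP10K at ZT14 and 85.6 at ZT02 in Fer2 DANs against 68.5 and 84.2 TP10K. *ple* stood at 61.7 TP10K at ZT14 and 64.4 at ZT02 in Fer2 DANs against 56.3 and 57.3 TP10K (log2 fold change 0.11, adjusted p = 0.49) and *Ddc* at 20.2 and 21.2 TP10K against 21.1 and 21.3 TP10K (-0.08, adjusted p = 0.752). *Vmat* stood at 183 and 200 TP10K against 210 and 215 TP10K, below the fold that makes a call (-0.20, adjusted p = 0.00439). In CEL-seq2 *ple* was called higher, at 53.5, 38.9 and 46.7 TP10K at ZT02, ZT06 and ZT14 against 30.3, 27.1 and 34.8 TP10K (0.57 ± 0.15, adjusted p = 0.0184). The gene called lower in 10X was *AANAT1*, which encodes an enzyme that acetylates dopamine (-2.49 ± 0.40), at 0.0101 TP10K at ZT14 and 0.0840 at ZT02 in Fer2 DANs against 0.275 and 0.232 TP10K.

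Of 8 genes of other transmitters tested in 10X, 5 were called lower (62.5%, against 6.16% of all genes) and 0 higher, and of 9 in CEL-seq2, 3 were called lower (33.3%, against 1.46%) and 0 higher. *VGlut*, the vesicular glutamate transporter gene, stood at 0.322 TP10K at ZT14 and 0.451 at ZT02 in Fer2 DANs against 3.65 and 3.80 TP10K (-3.32 ± 0.15), with 70.7% of the Fer2 UMIs in 2 cells of group 6, and it fell in CEL-seq2 (-2.86 ± 0.25, adjusted p = 5.63e-12). *Tdc2*, of tyramine synthesis, stood at 0.111 and 0.168 TP10K against 0.858 and 0.818 TP10K (-2.64 ± 0.23), and had no UMI in the Fer2 DANs of CEL-seq2. *SerT*, the serotonin transporter gene, was found in 1 of 301 Fer2 DANs (-6.43 ± 0.52), *ChAT* fell by 1.93 ± 0.32 on the log2 scale and *VAChT* by 2.49 ± 0.28, all called in 10X alone.

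The neuropeptide genes called by both methods sat mostly in single groups of Fer2 DANs. Of 25 tested in 10X, 7 were called higher (28.0%, against 4.18% of all genes) and 9 lower (36%, against 6.16%). Of 15 tested in CEL-seq2, 1 was called higher (6.67%, against 0.772% of all genes) and 3 lower (20%, against 1.46%). *CCHa2* stood at 19.8 TP10K at ZT14 and 15.2 at ZT02 in Fer2 DANs against 0.0967 and 0.0616 TP10K (7.75 ± 0.16), with 91.3% of its UMIs in the 9 cells of group 11 and a log2 fold change of 4.43 without groups 9 and 11, and rose in CEL-seq2 (4.79 ± 0.40, adjusted p = 7.41e-13). *CG7191* shared this pattern, with 59.2% of its UMIs in group 11 and a rise in both methods (4.59 ± 0.24 and 2.87 ± 0.33). *Ms*, the myosuppressin gene, stood at 0.0302 and 1.58 TP10K against 18 and 18.2 TP10K (-4.93 ± 0.29 in 10X, -3.42 ± 0.22 in CEL-seq2) and *AstC* at 1.30 and 17.2 TP10K against 25.5 and 26.8 TP10K (-2.36 ± 0.27 and -3.17 ± 0.19). Group 9 held 89.6% and 90.8% of their UMIs in Fer2 DANs. The allatostatin gene *AstCC* fell in 10X alone (-3.89 ± 0.25).

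Several 10X calls rested on group 9 or on 1 cell. *AstA* was called higher (5.10 ± 0.28) with 99.3% of its UMIs in group 9, without which it had 1 UMI at each time point. *CG4716* (3.21 ± 0.30), *Pdh* (3.27 ± 0.24) and *CG30197* (3.54 ± 0.24) had 97.4%, 96.0% and 96.9% there. Without group 9 the last 3 turned to -1.08, -0.69 and -1.08. *Trissin*, a peptide gene of clock neurons, was called higher (5.82 ± 0.59) with 2108 of its 2147 UMIs in 1 cell of group 6 from ZT02. The other 300 Fer2 DANs held 0.202 TP10K of it against 0.0738 TP10K in Fer2-negative DANs. That 1 cell was the one matched to clock cluster 10, with 5 *DAT* UMIs among 14506. The same cell held 201 of the 393 UMIs of *CG17777* (2.44 ± 0.25). Clock neuron markers as a whole summed to 42.7 TP10K in Fer2 DANs of ZT02 against 3.43 TP10K in Fer2-negative DANs of ZT02, and their part in these calls was not tested. Of the 4070 UMIs in that Fer2 sum, 1755 lay in group 9 and 2108 were the *Trissin* UMIs of the 1 cell.

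Of 61 G protein-coupled receptor genes tested in 10X, 16 were called higher (26.2%, against 4.18% of all genes) and 18 lower (29.5%, against 6.16%), and 27 were not called. In CEL-seq2, 4 of 39 were called each way (10.3%, against 0.772% higher and 1.46% lower over all genes). *Octbeta3R* (1.0 ± 0.13 in 10X, 1.53 ± 0.40 in CEL-seq2), *Dh31-R* (1.19 ± 0.15 and 1.5 ± 0.38) and the tachykinin family receptor gene *TkR86C* (1.57 ± 0.18 and 2.16 ± 0.56) rose in both. *Dh31-R* stood at 1.22 TP10K at ZT14 and 0.819 at ZT02 in Fer2 DANs against 0.462 and 0.394 TP10K. *5-HT2B* fell in both (-3.54 ± 0.27 and -3.51 ± 0.68), at 0.0603 and 0.0735 TP10K against 0.805 and 0.707 TP10K. The others called lower in both were *5-HT7* (a serotonin receptor), *Octbeta1R* (an octopamine receptor) and *AstA-R1* (an allatostatin A receptor). The call of *5-HT7* in 10X (-1.0 ± 0.17) was lost and its sign turned, to 0.15, when each cell was thinned to 1000 UMIs.

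Of 104 cell surface genes tested in 10X, 18 were called higher (17.3%) and 35 lower (33.7%), with a median log2 fold change of -0.0781, and of 88 in CEL-seq2, 1 was called higher (1.14%) and 10 lower (11.4%). More genes were called lower than higher over all genes too, at 6.16% against 4.18% in 10X and 1.46% against 0.772% in CEL-seq2. *Nlg2* (*neuroligin 2*, of the postsynaptic side) rose in both (0.76 ± 0.12 and 0.85 ± 0.24), at 9.19 TP10K at ZT14 and 9.58 at ZT02 in Fer2 DANs against 5.45 and 5.31 TP10K. *Ten-a*, a teneurin of synaptic partner matching, stood at 11.3 and 9.07 TP10K against 29.0 and 23.0 TP10K (-1.39 ± 0.10 in 10X, -1.10 ± 0.17 in CEL-seq2), with 43.8% of its UMIs in group 5. *Mp* (*Multiplexin*, a collagen) and the immunoglobulin domain gene *dpr3* fell (-1.64 ± 0.13 and -2.14 ± 0.16 in 10X). *DIP-beta* fell by 1.10 ± 0.14 in 10X and by 4.25 ± 0.54 in CEL-seq2, on the log2 scale, although group 3 held it at 2.38 TP10K, above the 1.42 TP10K of Fer2-negative DANs at ZT14 and the 1.34 TP10K at ZT02.

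Over all genes tested in 10X, 4.18% were called higher and 6.16% lower, which is the background for the lists that follow. Among ion channel genes 8 of 52 were called higher (15.4%) and 6 lower (11.5%) in 10X, and the one shared with CEL-seq2 was *Cngl*, a cyclic nucleotide-gated channel gene (-0.80 ± 0.11 and -0.97 ± 0.20). *Grd*, a GABA and glycine-like receptor subunit gene, rose in 10X (3.66 ± 0.16), with 1.91 TP10K at ZT14 and 1.21 at ZT02 in Fer2 DANs against 0.124 and 0.111 TP10K, and was not called in CEL-seq2 (adjusted p = 0.313). Among genes of cyclic AMP signalling and learning 2 of 23 were called higher (8.70%) and 7 lower (30.4%), with *Ggamma30A*, a G protein gamma subunit gene, lower in both methods (-0.97 ± 0.10 and -0.99 ± 0.17). Of synaptic vesicle and active zone genes 0 of 24 were called higher and 3 lower (12.5%) in 10X, including *Rab26* (-0.53 ± 0.12) and *Sytbeta* (-0.56 ± 0.12). Of 23 antioxidant and mitochondrial quality control genes 1 was called higher in 10X (4.35%), close to the 4.18% of all genes. It was *DJ-1alpha*, at 0.151 TP10K at ZT14 and 0.147 at ZT02 against 0.0463 and 0.0343 TP10K (1.84 ± 0.46). Of 17 stress genes 3 were called lower (17.6%) and 0 higher, among them the small heat shock gene *Hsp27* (-0.72 ± 0.12) and *Gadd45* (-1.27 ± 0.26).

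Outside the lists, the genes that rose most in CEL-seq2 included *nvy* (*nervy*, a transcriptional corepressor; 2.14 ± 0.11 in 10X, 1.95 ± 0.38 in CEL-seq2), *aop* (*anterior open*, an ETS repressor; 1.18 ± 0.12 and 1.90 ± 0.34) and *Scp2*, a calcium-binding protein gene (2.0 ± 0.18 and 1.96 ± 0.34), all called higher in both. *Apoltp* rose in CEL-seq2 (2.31 ± 0.48, adjusted p = 0.00167) and was not called in 10X (adjusted p = 0.365), where 60.5% of its UMIs lay in group 6. *CG2016* stood at 0.744 TP10K at ZT14 and 1.37 at ZT02 against 4.02 and 6.56 TP10K in 10X (-2.38 ± 0.14) and had no UMI in the Fer2 DANs of CEL-seq2, where it was called lower too. *CG34113* and *CR44832* fell in CEL-seq2 (-3.22 ± 0.56 and -3.34 ± 0.32) and had 0 UMIs in every 10X cell.

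Markers of other cell types were counted in the same sums. In CEL-seq2, of 3 clock neuron markers tested, 0 were called higher (0%, against 0.772% of all genes) and 1 lower (33.3%, against 1.46%). There the 9 markers summed to 1.92 TP10K in Fer2 DANs against 4.27 TP10K in Fer2-negative DANs. In 10X 4 of 9 clock neuron markers (*tim*, *Pdf*, *Trissin* and *CCHa1*) were called higher (44.4%, against 4.18% of all genes). The list summed to 13.3 TP10K in Fer2 DANs without group 9, against 2.32 TP10K in Fer2-negative DANs. Of the 2478 UMIs behind the 13.3 TP10K, 2108 were of *Trissin* in 1 cell of group 6. The 5 glial markers, of which only *Gs2* and *nrv2* were tested and both called higher, summed to 0.668 TP10K in Fer2 DANs against 0.266 TP10K. Of the *Gs2* UMIs, 96.6% lay in group 9. Cholinergic and GABAergic markers summed to 0.919 against 1.65 TP10K and photoreceptor markers to 3.45 against 3.25 TP10K, with *ninaE* at 0 in both classes. The 6 hemocyte and fat body markers summed to 0.0154 against 0.0631 TP10K.

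Time of day was described for the Fer2 DANs by the ratio of ZT14 to ZT02 in 10X, where 1 library per time point allows no test across genes. Of 1940 genes with at least 1 TP10K at either time point, 23 were at least 2-fold higher at ZT14 with a 95% exact Poisson interval that leaves out 1 (1.19%), and 28 were lower (1.44%). Without group 9, which has no ZT14 cell, these counts were 21 and 9. In Fer2-negative DANs 11 genes were higher and 3 lower by the same limits.

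Of the genes highest at ZT14, those of the mitochondrial genome and of heat shock had ratios close to those of the Fer2-negative DANs, with intervals that overlap. *mt:ND6* stood at 1.04 TP10K at ZT14 and 0.126 at ZT02 (ratio 8.22, 4.51 to 16.4), *mt:ND1* at 3.49 and 0.651 (5.36, 4.08 to 7.14) and *mt:ND5* at 3.03 and 0.83 (3.65, 2.84 to 4.74), all of the mitochondrial genome. Their ratios in Fer2-negative DANs were 6.48, 6.05 and 3.82. The heat shock genes *Hsp70Bc* (4.04, 2.87 to 5.80) and *Hsp68* (3.31, 2.55 to 4.35) had ratios of 3.85 and 2.97 in Fer2-negative DANs. *CG43373* stood at 1.61 TP10K at ZT14 and 0.409 at ZT02 in Fer2 DANs (3.93, 2.75 to 5.73), and at 0.601 and 0.544 in Fer2-negative DANs (1.11, 0.969 to 1.26). It led in groups 1 and 7, and group 1 gave 42 of 132 Fer2 DANs at ZT14 and 30 of 169 at ZT02, so the mix of groups and the time of day cannot be told apart for it. *pros*, named after its values were seen, had a ratio of 2.07 (1.98 to 2.15) and was likewise unequal between the groups.

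The genes lowest at ZT14 were those of group 9 and of single cells. *AstA*, *CG4716* and *Trissin* had ratios of 0.00316, 0.00441 and 0.00629, and *CG4000* and *CG17777* had no UMI at ZT14, which makes them at least 80.7-fold and 137-fold lower by a floor of 3 counts per class. The 225 UMIs of 1 cell made up 97.0% of those of *CG4000*. *AstC*, with a ratio of 0.0754, turned to 3.42 without group 9. Of the genes that stayed low, with their ratios without group 9, *CG12239* (0.0737, 0.0394 to 0.127) was also low in Fer2-negative DANs (0.352), whereas *Dh44*, of diuretic hormone 44, stood at 0.432 (0.292 to 0.629) against 1.2 there, with 44.2% of its UMIs in group 6, which gave 6 cells at ZT14 and 13 at ZT02, so the mix of groups cannot be told apart from the time of day for it either. *sNPF* stood at 0.245 (0.158 to 0.370) against 1.39, with 72.9% of its UMIs in 1 cell, the one of group 6 matched to clock cluster 10.

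Clock and activity genes were at low to moderate levels. *per* stood at 7.32 TP10K at ZT14 and 12.1 at ZT02 in Fer2 DANs (ratio 0.603, 0.549 to 0.663) and had a ratio of 0.682 in Fer2-negative DANs. *Pdp1* stood at 14 and 8.31 TP10K (1.69, 1.54 to 1.84) against a ratio of 1.35. The activity-regulated genes *Hr38* (4.46 and 8.22 TP10K, 0.543, 0.482 to 0.611) and *sr* (*stripe*; 1.61 and 2.69 TP10K, 0.599, 0.488 to 0.732) were lower at ZT14, with ratios of 0.639 and 0.535 in Fer2-negative DANs. *CG14186* had a ratio of 0.620 (0.490 to 0.782) and *cwo* (*clockwork orange*) of 0.839 (0.646 to 1.09). *tim*, the clock gene *timeless*, rested on 39 UMIs at ZT14 and 14 at ZT02 (2.67, 1.42 to 5.32), 71.7% of them in group 6. It was called higher in Fer2 DANs than in Fer2-negative DANs in 10X (2.37 ± 0.37), as the only such gene of this list, beside *sr*, which was called lower (-0.44 ± 0.12). Each was 1 of 13 tested (7.69%), where 4.18% of all genes were called higher and 6.16% lower. *Clk*, *vri*, *cry*, *cyc*, *Thor* and *Arc1* had 0.41 TP10K or less at either time point.

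**Figure D5:**
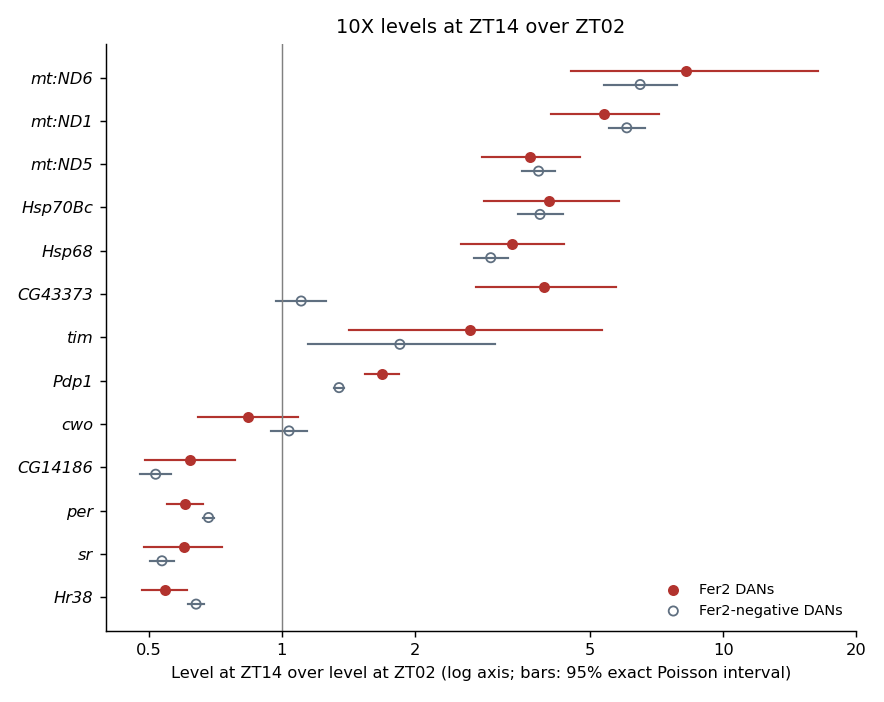
Ratio of the 10X level at ZT14 to that at ZT02 (x axis, logarithmic) for 13 genes (rows) in Fer2 DANs (filled red) and Fer2-negative DANs (open grey), with bars for the 95% exact Poisson interval. The mitochondrial and heat shock genes lie close together in both classes, between 2.97 and 8.22, while *CG43373* lies at 3.93 in Fer2 DANs and at 1.11 in Fer2-negative DANs.

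In CEL-seq2 the same times were compared over library sums with at least 2 Fer2 DANs, 3 libraries at ZT14 and 2 at ZT02, each with 2 to 4 cells. Of 647 genes tested, 0 were called in edgeR (0%), with a lowest adjusted p of 0.0679 and 22 genes at an unadjusted p under 0.05. DESeq2 called 0 as well, with 17 genes at an unadjusted p under 0.05.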

How the data were processed

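The authors deposited whole-number UMI counts for each gene in each cell, with no normalization. Reads had been mapped to dm6 and exonic UMIs counted by zUMIs (CEL-seq2) or Cell Ranger 6.0.2 (10X), with bcl2fastq 2.20 also named in the submitters' processing notes. Cells outside limits on genes, UMIs and expression entropy, and Scrublet doublets of 10X, had been removed before deposit, so no doublet caller was run. Of 9025 columns, 6700 were used, and 2325 columns of per-sample values were not used. The 91 spike-in rows were left out of all totals, leaving 17087 genes.

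Cells were classed by the rule on *Fer2*, *DAT*, *Nos* and *NPF*, and the members and gene lists were chosen with earlier results of these data known. UMIs were summed per class and library, or time point, and fitted in edgeR 4.0.16 (TMM, filterByExpr, glmQLFit and glmQLFTest) in R 4.3.3, with Benjamini-Hochberg adjustment over all genes tested. Each SE was derived as |log2 fold change| over the root of the F statistic. Labels do not state whether libraries of a time point came from separate flies. DESeq2 1.42.0, other size factors, no filter on low counts, other limits of the rule, cells of 5000 UMIs or more, thinned cells and left-out libraries were tried as alternatives, and fits without groups 9 and 11 or on thinned cells were added after the data had been seen. The main edgeR fits of the classes in each method, and of ZT14 against ZT02 in CEL-seq2, were run on simulated counts. These were drawn with the same dispersion for all genes and no block effect. The alternatives were not simulated.

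Cells were matched to the 43 cluster means of the study's supplement by Pearson correlation over 335 genes, with a minimum of 0.5 and a lead of 0.01. Groups of Fer2 DANs came from Leiden clustering (scanpy 1.11.5, leidenalg 0.10.2, 1500 variable genes, 15 components, 10 neighbours, resolution 1.0), and a leading gene of a group had at least 2 TP10K and a UMI in at least 50% of its cells. Coordinates are from the BDGP6.54 annotation. Genes were named if they were rule genes or given markers, if a list's members were called in the same direction by both methods (up to 4 each way by the 10X fold change, otherwise up to 2 called in 10X alone), if they were among the 10 largest changes each way at 1 TP10K or more in a test, or, for time of day, in its list or among the 5 largest ratios each way. Other genes named, such as *pros*, *Bx* and the genes of the groups, were chosen after their values were seen. Other tools were matplotlib 3.10.9, pandas 2.3.3, scipy 1.17.1 and numpy 2.4.6 under Python 3.11.15.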

Additional observations from a re-analysis of the deposited data

Results flagged for a closer look

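In 10X, 3 genes stood on opposite sides of the Fer2-negative DANs at the 2 time points, each time with an interval that left out 1, and these differences were not tested. *Arc1* had a ratio of Fer2 DANs to Fer2-negative DANs of 0 at ZT14 and 2.19 at ZT02. *CG17777* had 0 at ZT14 and 8.75 at ZT02, and *sNPF* 0.334 at ZT14 and 1.78 at ZT02. *Arc1* had 16 of its 39 UMIs in 1 cell, and without group 9 it stood at 0.288 TP10K at ZT02 against 0.187 TP10K in Fer2-negative DANs. The ZT02 sum of *sNPF* had 102 UMIs in 1 cell, and that of *CG17777* had 201 in the same cell.

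Between the methods, 3 genes were called in opposite directions, which was not tested as a difference. *CG14989* had a log2 fold change of 1.79 in 10X and -2.08 in CEL-seq2, *CG13954* of -0.73 and 1.0, and *JhI-21* of 0.75 and -2.13.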

How the results depend on the processing

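Counts of calls moved with the tool and with depth. In 10X, 290 higher and 427 lower became 116 and 160 by DESeq2 and 118 and 198 among cells of 5000 UMIs or more, and 253 were lower with each cell thinned to 1000 UMIs. In CEL-seq2, 36 higher and 68 lower became 7 and 13 thinned and 12 and 28 with sums per library, 32 were lower by DESeq2, and leaving out a time point gave 5 to 49 higher and 13 to 70 lower, the lowest without ZT14. Of 67 named genes called in 10X, 45 kept their call by DESeq2 and 52 of 66 tested among cells of 5000 UMIs or more, and of 43 called in CEL-seq2, 32 kept it by DESeq2 and 13 without ZT14. Of all 717 calls in 10X, 327 were kept with each cell thinned to 1000 UMIs. Of the 75 shared calls, 58 were called by DESeq2 in 10X, 68 among cells of 5000 UMIs or more and 56 of 73 tested after thinning. For ZT14 against ZT02 in CEL-seq2, no filter gave 1 higher and 5 lower, and leaving out a library gave 0 to 1 higher and 0 to 6 lower, the 6 without ZT02 replicate 4 and 3 without ZT14 replicate 2. In 10X the genes past 2-fold were 42 higher and 100 lower in cluster 9, 51 and 77 thinned, and 9 lower without group 9. The share of Fer2 DANs in cluster 9 was 0% and with no cluster 65.1% at a correlation minimum of 0.7, groups of 5 or more Fer2 DANs numbered 7 by cluster and 11 by Leiden clustering, and *Fer2* was found in 62.2% at 2000 UMIs and in 46.5% at 1000. The causes were not tested.

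Signs of the log2 fold change in 10X turned for 8 of the genes reported. Thinning gave 0.15 for *5-HT7*. Limits of 2 *Fer2* or 10 *DAT* UMIs gave -0.35 and -0.36 for *AstA*. DESeq2 and cells of dopaminergic clusters gave -1.36 and -0.55 for *CG17777*. Cells of 5000 UMIs or more gave -0.037 for *CG4000* and -0.35 for *CG43373*. Without group 9, and without groups 9 and 11, *CG30197* had -1.08 and -0.99, *CG4716* -1.08 and -1.07, and *Pdh* -0.69 and -0.67. Leaving out 1 library (ZT02 first, then ZT14) gave -0.88 and 5.66 for *AstA*, -0.16 and 4.10 for *CG30197*, -0.53 and 4.22 for *CG4716*, and 1.42 and -0.41 for *CG43373*, with no test. The ratio of ZT14 to ZT02 turned to 3.42 for *AstC* without group 9, to 1.14 for *Trissin* and 4.26 for *sNPF* in cluster 9, and to 1.28 for *sNPF* thinned. The causes were not tested.

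No paired analysis was possible because the library numbers of ZT14 and ZT02 in CEL-seq2 do not overlap, and the classes were already compared within each library or time point.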
